A study of Mus musculus with 40 samples.

Results

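Mest, Sfrp5, Npr3 and Bmp3 are 4 genes whose expression in mouse fat is known to follow the growth of fat mass. They were taken by symbol from a count table of 34843 symbols, and 4 of the 4 were among the 15807 genes with enough counts to be tested. The RNA came from sWAT, the white fat that lies under the skin of the mouse, and was counted in 40 libraries, 8 for each of 5 groups. The groups were mice on normal diet (ND), mice on high-fat diet (HFD), HFD-fed mice given semaglutide, HFD-fed mice given tirzepatide, and a dietary intervention in which the feed changed from HFD to ND, called diet switch here. Semaglutide is a peptide agonist at the GLP-1 receptor, while tirzepatide acts at both the GLP-1 and the GIP receptor. The study asked which effects of HFD on fat tissue persist and which are reversed under these incretin analogs. Strain, sex, age, dose and duration are not in the labels. Earlier treatment of the diet switch mice is not described, although the title places the dietary intervention after incretin analog treatment. Nor do they say that each library is a separate animal, so the p-values reflect only sample-to-sample spread, which may be technical.

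The 4 genes act in different pathways. Mest encodes a hydrolase-like protein of the endoplasmic reticulum and is imprinted, being expressed from the paternal copy, and its RNA in mouse fat is known to rise when adipocytes enlarge on a rich diet. Sfrp5 encodes a secreted Frizzled-related protein that binds Wnt ligands outside the cell and so keeps them from their receptors. Npr3 encodes the clearance receptor of the natriuretic peptides, which takes these hormones up for breakdown and lacks the guanylyl cyclase through which Npr1 and Npr2 make cGMP, a signal for fat breakdown in adipocytes. Bmp3 encodes an unusual member of the bone morphogenetic protein (BMP) family that binds the activin receptor Acvr2b and opposes signalling by other BMPs.

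In the mm10 build with GENCODE M21 annotation, Mest lies on chromosome 6 (30723547 to 30748465, plus strand), Sfrp5 on chromosome 19 (42197971 to 42202252, minus strand), Npr3 on chromosome 15 (11839896 to 11907287, minus strand) and Bmp3 on chromosome 5 (98854415 to 98884396, plus strand). The last 912 exonic bases of Mest overlap Copg2 on the opposite strand, and Mir335 lies in an intron of Mest. Whether counting used strand is not given in the sources used here, and reads in the overlap cannot then be told apart. The overlap lies at the 3′ end of both genes, and the kit used reads transcript ends. This limit therefore bears on the levels given for Mest and for Copg2. The start of Npr3 overlaps the noncoding gene Gm5144 on the opposite strand, over 321 exonic bases. The RefSeq promoter table (GRCm38.p6) held 3 of the 4 genes, and their 250 bases before the start are shown as a description. Whether these sequences bear on the RNA levels was not tested. The windows are chr6:30737800-30738049 for Mest (plus strand), chr19:42202253-42202502 for Sfrp5 (minus strand) and chr15:11907372-11907621 for Npr3 (minus strand), each written 5′ to 3′ along the gene, with motif matches on either strand in capitals.
Mest: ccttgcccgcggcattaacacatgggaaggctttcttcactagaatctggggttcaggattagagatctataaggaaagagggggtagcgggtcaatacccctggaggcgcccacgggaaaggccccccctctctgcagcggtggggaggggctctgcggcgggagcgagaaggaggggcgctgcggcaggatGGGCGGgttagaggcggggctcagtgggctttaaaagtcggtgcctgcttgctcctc
Sfrp5: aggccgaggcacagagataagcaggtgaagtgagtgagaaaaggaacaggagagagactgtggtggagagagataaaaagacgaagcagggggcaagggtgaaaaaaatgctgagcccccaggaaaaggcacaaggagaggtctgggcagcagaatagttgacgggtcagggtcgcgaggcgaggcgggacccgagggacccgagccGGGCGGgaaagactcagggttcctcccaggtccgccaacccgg
Npr3: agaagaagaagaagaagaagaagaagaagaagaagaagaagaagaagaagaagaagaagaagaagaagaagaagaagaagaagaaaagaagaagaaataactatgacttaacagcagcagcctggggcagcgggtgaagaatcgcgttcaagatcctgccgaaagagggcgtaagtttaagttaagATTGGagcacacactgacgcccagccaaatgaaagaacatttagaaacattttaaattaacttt
The capitals mark GGGCGG, the GC box, in Mest and Sfrp5, and CCAAT, read here on the reverse strand, in Npr3. Of 32851 RefSeq promoter windows of this length, 32.7% held GGGCGG and 33.8% held CCAAT on either strand. Mest and Sfrp5 were rich in G and C (62.4% and 59.6%, against a median of 52.4% over all windows), and Npr3 was poor in them (38.8%). The ratio of observed to expected CpG was 0.61, 0.66 and 0.75, above the median of 0.37 in each. The letters AGGTCA (nuclear receptor site, in 14.0% of windows), CACGTG (E-box, 6.0%), CTTTGA (bound by the TCF partners of beta-catenin, 13.8%), TATAAA (12.4%) and TTGCNNAA (C/EBP core, 9.6%) were not in these 3 windows. RefSeq lists further starts for Mest, and a window farther upstream (chr6:30733256-30733505) held GGGCGG and TTGCNNAA, with a CpG ratio of 0.32.

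Depth ran from 2115471 to 7445548 counts per library (median 3765319.5), with 19900 to 23774 genes detected. Levels are given as CPM, the counts relative to scaled library size, and a gene counts as changed where the edgeR quasi-likelihood test gave a Benjamini-Hochberg adjusted p under 0.05 over all tested genes. Adipocyte markers were high in every library, with a mean of 8 markers between 9.87 and 11.1 log2 CPM. B cell markers (5 of 5 in the table, none at 0 in every library) had a mean above 5 log2 CPM in ND 5 and semaglutide 1, 3 and 8, where it lay at 6.46, 6.58, 5.5 and 5.54. In each other library it lay below 5, at most 1.48 in HFD, tirzepatide and diet switch. Muscle markers (10 of 10 in the table) lay above 5 in 11 libraries: tirzepatide 1, 2, 4, 5 and 7, diet switch 1, 3 and 6, HFD 4, and ND 6 and 8, and Myh2 had 0 counts in 6 libraries. Epithelial and mesothelial markers were near 0, with group means of at most 0.139 and 0.157 log2 CPM. ND 5 and semaglutide 1 stand apart for the genes described here: ND 5 had the lowest level of all 4 in its group, and semaglutide 1 did so in its own. For the 4 genes, values without the B-cell-high or the muscle-high libraries stand beside each result whose call they change.

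On HFD, Mest and Sfrp5 rose several-fold, while Npr3 and Bmp3 had higher means that did not pass the test. Mest ran from 2 to 25.5 CPM (median 16.5) in ND and from 21.3 to 98.3 CPM (median 70.2) in HFD. In 7 of the 8 HFD libraries it lay above every ND library, the exception being HFD 8. Its mean was 14.6 ± 7.78 CPM (SD, n = 8) in ND and 65.3 ± 29.1 in HFD, a 4.49-fold rise (log2 fold change 2.17 ± 0.46 SE, edgeR adjusted p = 0.00285). Sfrp5 ran from 22.9 to 173 CPM (median 104) in ND and from 280 to 462 CPM (median 362) in HFD, so the groups did not overlap. Its mean went from 104 ± 44.4 to 370 ± 69.5 CPM, a 3.54-fold rise (1.82 ± 0.39, edgeR adjusted p = 0.00305). Markers of other cells differed between these diets too. Of 6 endothelial markers 1 rose (median log2 change 0.33; score 5.67 in ND, from 5.4 to 6, and 6 in HFD, from 5.69 to 6.24), and of 8 adipocyte markers 2 rose (median 0.04; score 10.6 and 10.9). Of 10 muscle markers 2 fell (median -3.21; score 4.27 in ND, from 1.91 to 8.14, and 2.02 in HFD, from 0.977 to 5.65). Their part in these rises was not tested. In bulk tissue, more cells that express a gene and more RNA per cell cannot be told apart.

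Npr3, the clearance receptor, ran from 46.3 to 548 CPM (median 336) in ND and from 323 to 736 CPM (median 557) in HFD. The groups overlapped, with 4 of the 8 HFD libraries above every ND library. The log2 difference was 0.68 ± 0.31 (95% interval 0.06 to 1.30, edgeR adjusted p = 0.233). Bmp3 ran from 15.2 to 62.3 CPM (median 48.6) in ND and from 53.8 to 154 CPM (median 72.9) in HFD. Of the 8 HFD libraries 6 lay above every ND library, and the log2 difference was 0.85 ± 0.32 (95% interval 0.20 to 1.49, edgeR adjusted p = 0.136). With only the ND and HFD libraries in the fit Bmp3 passed, at 0.85 (edgeR adjusted p = 0.0383). Of the 4 genes 2 rose and none fell, beside 4.50% of all tested genes called in either direction and 2.83% called as higher in this comparison. Without the 4 B-cell-high libraries Mest stood at 2.01 and Sfrp5 at 1.68 (edgeR adjusted p = 0.00122 and 0.00145).

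**Figure D1:**
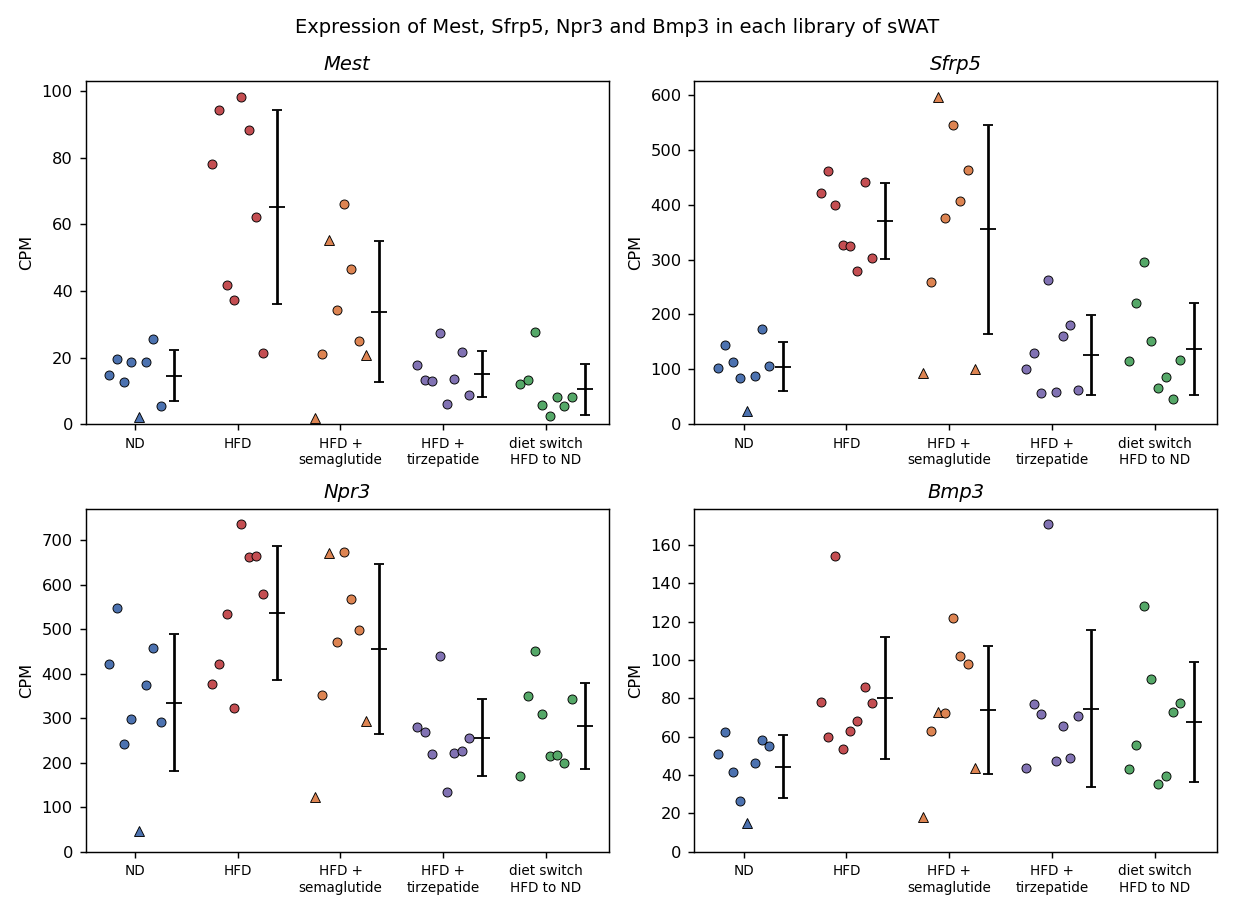
Level of Mest, Sfrp5, Npr3 and Bmp3 in each of the 40 libraries, in CPM on linear axes, with 1 panel per gene and 1 point per library. Bars show the mean and SD of 8 libraries, and triangles mark the 4 libraries with B cell markers above 5 log2 CPM. The HFD points of Sfrp5, from 280 to 462 CPM, all lie above the ND points, while Bmp3 points overlap between all groups.

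Under semaglutide none of the 4 genes changed against HFD, and their spread was wide. Mest ran from 1.85 to 66.2 CPM (median 29.6), with 8 of 8 libraries below the HFD median and 3 of 8 below every HFD library. Its log2 difference from HFD was -0.94 ± 0.44 (95% interval -1.83 to -0.06, edgeR adjusted p = 0.225). Sfrp5 ran from 93 to 597 CPM (median 391), with 3 libraries above every HFD library and 3 below every one. Its mean of 355 ± 190 CPM stood beside 370 ± 69.5 in HFD, a log2 difference of -0.06 (95% interval -0.83 to 0.71, edgeR adjusted p = 0.956). Npr3 (122 to 674 CPM, median 485) differed from HFD by -0.24 ± 0.31 and Bmp3 (18 to 122 CPM, median 72.6) by -0.11 ± 0.31 on the log2 scale. In this comparison 4.15% of all tested genes were called. The 1 tested B cell marker rose (3.81) and 1 of 8 adipocyte markers fell (median -0.04).

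Against ND, Sfrp5 under semaglutide remained 3.4-fold higher (1.76 ± 0.39, edgeR adjusted p = 0.00721), with 6 of 8 libraries above every ND library. The 2 others were semaglutide 1 and 8, both B-cell-high, while semaglutide 3, also B-cell-high, had the highest level of the group (597 CPM). Without the 4 B-cell-high libraries the log2 difference was 1.80 (edgeR adjusted p = 0.00309). Mest lay 1.22 ± 0.46 above ND (edgeR adjusted p = 0.169), Npr3 0.44 ± 0.30 and Bmp3 0.73 ± 0.32, and none of these passed. Thus 1 of the 4 genes was called, beside 2.64% of all tested genes (417 genes, and 256 to 853 when single libraries were left out). These comparisons share the semaglutide libraries.

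Under tirzepatide Mest, Sfrp5 and Npr3 fell against HFD, and Bmp3 did not pass. Mest ran from 5.88 to 27.4 CPM (median 13.3), and 6 of 8 libraries lay below every HFD library. Its mean of 15.1 ± 6.96 CPM was 4.37-fold below HFD (-2.13 ± 0.46, edgeR adjusted p = 0.00124). Sfrp5 ran from 57.1 to 263 CPM (median 115), with no overlap with HFD, and fell 2.92-fold to a mean of 127 ± 72.8 CPM (-1.55 ± 0.39, edgeR adjusted p = 0.0045). Npr3 ran from 135 to 440 CPM (median 242), with 7 of 8 libraries below every HFD library, and fell 2.1-fold to 256 ± 86.6 CPM (-1.07 ± 0.31, edgeR adjusted p = 0.012). Bmp3 ran from 43.5 to 171 CPM (median 68.3), with 1 library above every HFD library and 3 below, and differed by -0.10 (95% interval -0.74 to 0.53, edgeR adjusted p = 0.858). Of the 4 genes 3 fell, beside 20.5% of all tested genes called in either direction and 10.7% called as lower.

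Muscle markers were above 5 log2 CPM in 5 of 8 tirzepatide libraries and 1 of 8 HFD libraries. They ranged from 0.873 to 7.54 under tirzepatide, against 0.977 to 5.65 on HFD, and 2 of the 10 rose (median 2.85). Of 8 adipocyte markers 3 fell under tirzepatide (median -0.36), with a score of 10.5 (from 10.2 to 11) against 10.9 on HFD (from 10.8 to 11.1). Among 8 adipose progenitor markers 1 rose (median 0.17), and the 1 tested epithelial marker rose by 1.69. The part of these cells in the falls of Mest, Sfrp5 and Npr3 was not tested. Without the 11 muscle-high libraries the falls of Mest and Sfrp5 were larger, at -2.58 and -2.01 (edgeR adjusted p = 0.0279 and 0.0447). That of Npr3 was -1.29 and no longer passed (edgeR adjusted p = 0.0975), with 3 tirzepatide libraries left. Against ND, the tirzepatide libraries differed by 0.04 ± 0.47 for Mest (95% interval -0.91 to 0.99), 0.28 ± 0.39 for Sfrp5 (-0.50 to 1.06), -0.39 ± 0.31 for Npr3 (-1.01 to 0.23) and 0.75 ± 0.32 for Bmp3 (0.10 to 1.39). None of the 4 passed, where 10.1% of all tested genes did.

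After the diet switch the same 3 genes, Mest, Sfrp5 and Npr3, were below HFD. Mest ran from 2.56 to 27.7 CPM (median 8.24), with 7 of 8 libraries below every HFD library, and fell 6.16-fold to a mean of 10.4 ± 7.79 CPM (-2.62 ± 0.47, edgeR adjusted p = 0.000151). Sfrp5 ran from 45.2 to 295 CPM (median 116), with 7 of 8 libraries below every HFD library, and fell 2.7-fold to 137 ± 83.9 CPM (-1.43 ± 0.39, edgeR adjusted p = 0.00712). Npr3 ran from 169 to 451 CPM (median 264), with 5 of 8 below every HFD library, and fell 1.91-fold to 282 ± 96.7 CPM (-0.93 ± 0.31, edgeR adjusted p = 0.0246). The Npr3 call ended without HFD 5 (-0.85, edgeR adjusted p = 0.052) or diet switch 7 (-0.87, edgeR adjusted p = 0.0521). It also ended without the muscle-high libraries (-1.002, edgeR adjusted p = 0.076), without diet switch 3, 4 and 7 (-1.05, edgeR adjusted p = 0.0757) and with no filter on low counts (-0.95, edgeR adjusted p = 0.0537). Muscle-high libraries were 3 of 8 after the switch and 1 of 8 on HFD, with 1 of 10 muscle markers risen (median 2.78). Of 8 adipocyte markers 1 fell (median -0.15), of 6 endothelial markers 2 fell (median -0.17) and of 7 macrophage markers 1 fell (median -0.25). Among 8 adipose progenitor markers 3 rose and 1 fell (median 0.14). The part of these cells was not tested. Bmp3 ran from 35.5 to 128 CPM (median 64.4) and differed by -0.24 ± 0.32 (edgeR adjusted p = 0.623). In this comparison 23.8% of all tested genes were called in either direction and 10.9% were called as lower. The HFD libraries are shared with the comparisons above, so the 3 falls here and under tirzepatide are not independent.

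Against ND, the diet switch libraries differed by -0.46 ± 0.48 for Mest (95% interval -1.42 to 0.51), 0.39 ± 0.39 for Sfrp5 (-0.39 to 1.17), -0.25 ± 0.31 for Npr3 (-0.87 to 0.37) and 0.61 ± 0.32 for Bmp3 (-0.04 to 1.25). None of the 4 passed, where 14.8% of all tested genes were called. On the way from the HFD mean to the ND mean on the log2 scale, Mest had moved 43.6% under semaglutide, 98.2% under tirzepatide and 121.1% after the switch. Sfrp5 had moved 3.2%, 84.9% and 78.5%. For Npr3 and Bmp3, whose rise on HFD did not pass, the shares were 34.7%, 157.4% and 136.8%, and 13.5%, 11.9% and 28.4%. Leptin (Lep), the adipocyte hormone that tracks fat mass, had moved 52.8%, 131.2% and 129%, from 1840 ± 134 CPM in HFD and 695 ± 286 in ND. Under semaglutide Lep did not pass against HFD (-0.74 ± 0.29, edgeR adjusted p = 0.139) or against ND (0.66 ± 0.29, edgeR adjusted p = 0.251).

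**Figure D2:**
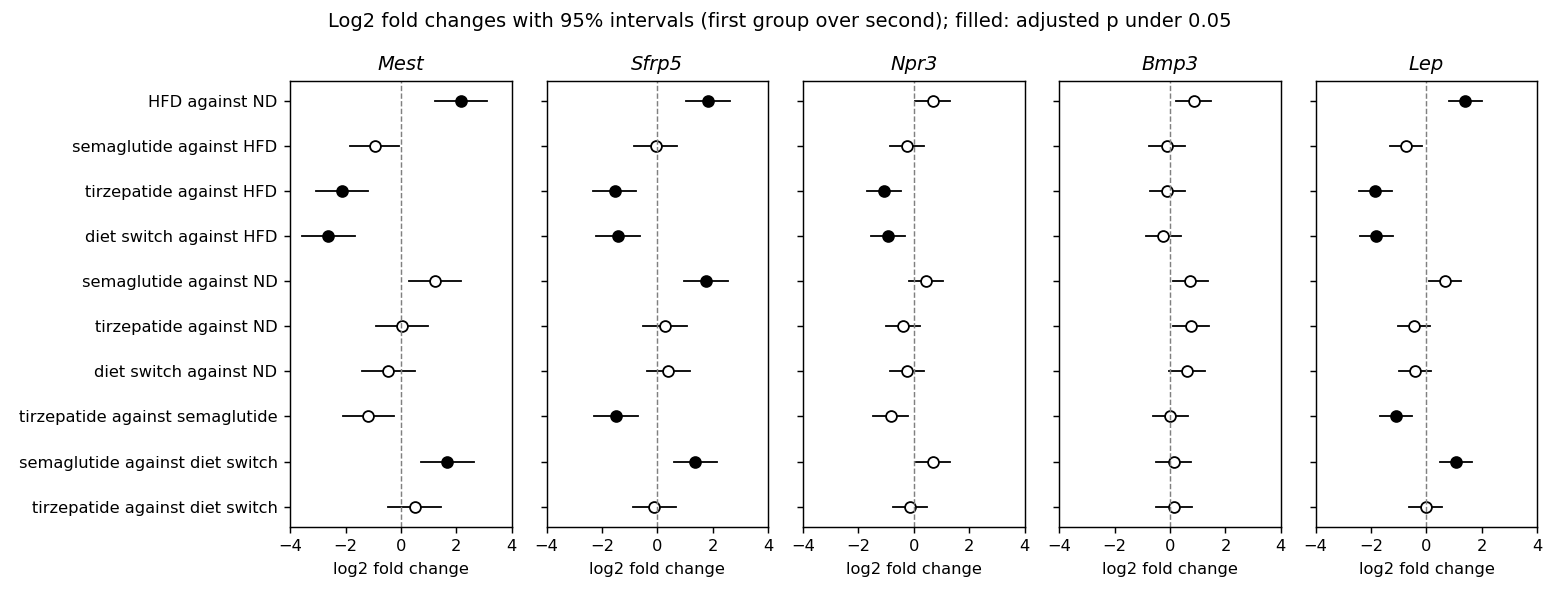
Log2 fold changes of the 4 genes and of Lep in the 10 comparisons, with 95% intervals, the group named on the left over the other. Filled circles have an edgeR adjusted p under 0.05. Mest, Sfrp5 and Npr3 are filled below 0 for tirzepatide and diet switch against HFD, and no circle of Bmp3 is filled.

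The treatments were also compared with each other. Sfrp5 was 2.81-fold lower under tirzepatide than under semaglutide (-1.49 ± 0.39, edgeR adjusted p = 0.0139), with 8 of 8 tirzepatide libraries below the semaglutide median. The value without the 11 muscle-high libraries was -1.91 and did not pass (edgeR adjusted p = 0.103). Mest (-1.18 ± 0.46, 95% interval -2.11 to -0.26) and Npr3 (-0.83 ± 0.31, -1.45 to -0.21) were also below the semaglutide median in 8 of 8 libraries but did not pass (edgeR adjusted p = 0.0907 and 0.0737). Both passed without the 4 B-cell-high libraries, at -1.36 and -0.99 (edgeR adjusted p = 0.0433 and 0.00801), and both passed without semaglutide 1 alone (-1.36 and -0.98, edgeR adjusted p = 0.0377 and 0.0337). Npr3 also passed without ND 5 (-0.83, edgeR adjusted p = 0.0245) and without tirzepatide 4 (-0.99, edgeR adjusted p = 0.0473). Bmp3 differed by 0.01 (95% interval -0.62 to 0.65). Of the 4 genes 1 was called, beside 10% of all tested genes. Dose and duration of the 2 drugs are not in the labels, so this compares the groups as treated.

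Semaglutide against the diet switch gave higher Mest (3.2-fold, 1.68 ± 0.47, edgeR adjusted p = 0.0153) and higher Sfrp5 (2.59-fold, 1.37 ± 0.39, edgeR adjusted p = 0.0166) under semaglutide. Npr3 differed by 0.69 ± 0.31 (edgeR adjusted p = 0.124), which passed without the B-cell-high libraries (0.86, edgeR adjusted p = 0.0166), and Bmp3 differed by 0.13 ± 0.32. The count of 2 called genes stands beside 13.3% of all tested genes. Without diet switch 3, 4 and 7 Mest and Sfrp5 stood at 1.93 and 1.55 and did not pass (edgeR adjusted p = 0.0622 and 0.0594), with 5 diet switch libraries left. Between tirzepatide and the diet switch none of the 4 genes passed, where 0.399% of all tested genes did, and the differences were 0.50 ± 0.48 for Mest, -0.12 ± 0.38 for Sfrp5, -0.14 ± 0.31 for Npr3 and 0.14 ± 0.32 for Bmp3.

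The order of the groups by mean level was HFD, semaglutide, tirzepatide, ND and diet switch for Mest. For Sfrp5 it was HFD, semaglutide, diet switch, tirzepatide and ND, and for Npr3 it was HFD, semaglutide, ND, diet switch and tirzepatide. In these orders the neighbours that differed past the threshold were semaglutide and diet switch for Sfrp5, and no neighbouring pair for Mest or Npr3. For Bmp3 the group means lay between 67.7 and 80 CPM in the 4 groups that had been on HFD, and at 44.4 CPM in ND.

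The counts for gene lists that follow are to be read beside the shares of all tested genes called. These were 4.50% on HFD against ND, and against HFD 4.15% under semaglutide, 20.5% under tirzepatide and 23.8% after the switch. Other genes tied to fat mass or fat growth were counted from a list of 10, of which 9 were tested. On HFD 3 rose and none fell (median log2 change 0.44, against -0.04 over all tested genes): Lep by 1.40 ± 0.29, Cavin1, a coat protein of caveolae, by 1.04 ± 0.18 and Nkd1, an inhibitor of Wnt signalling, by 1.08 ± 0.29. Under semaglutide 1 rose and 1 fell (median -0.18, all genes 0.05), Nnat, an imprinted proteolipid, by 0.82 ± 0.21 and Nkd1 by -1.09 ± 0.29. Under tirzepatide 2 rose and 3 fell (median -0.44, all genes 0.03), among them Lep at -1.84 ± 0.30, Nkd1 at -2.45 ± 0.31, the caveolin Cav1 at -0.86 ± 0.19 and Nnat at 1.24 ± 0.22. After the switch 3 rose and 3 fell (median -0.21, all genes 0.03), with Nkd1 at -1.88 ± 0.30, Lep at -1.81 ± 0.30, the secreted matrix protein Ccdc80 at 0.82 ± 0.18 and Nnat at 0.97 ± 0.21. Egfl6 had 39 counts in the 40 libraries and was not tested.

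For Mest, the list of its neighbours and of other imprinted growth genes had 17 of 20 tested. On HFD 2 rose and none fell (median 0.21, all genes -0.04): the zinc finger genes Peg3 and Zim1, which sit in the same imprinted cluster. Peg3 ran from 19.2 to 94.9 CPM in ND (median 46) and from 110 to 331 in HFD (median 212), without overlap, and rose by 2.06 ± 0.44 (edgeR adjusted p = 0.00276). Peg3 had no call against HFD under tirzepatide (-0.26 ± 0.42) or semaglutide (0.28 ± 0.42). It stayed above ND under both, by 1.81 ± 0.44 and 2.34 ± 0.44 (edgeR adjusted p = 0.00765 and 0.00106), and stood 1.05 ± 0.43 above ND after the switch (edgeR adjusted p = 0.0921). Whether Mest and Peg3 responded differently was not tested. Zim1 was low, at 0.256 to 9.18 CPM in ND and HFD, and rose by 2.22 ± 0.61 on HFD (edgeR adjusted p = 0.0215), a call that ended without ND 8 (edgeR adjusted p = 0.0509).

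The neighbours of Mest on chromosome 6 passed in none of the 10 comparisons. Copg2, a subunit of the vesicle coat protein COPI, had group means of 10.2 to 16.7 CPM and differed by 0.30 ± 0.23 between HFD and ND. Klf14, a transcription factor gene of the same imprinted domain, differed by 0.84 ± 0.36 (edgeR adjusted p = 0.2) and Cep41 by 0.15 ± 0.24. Against HFD, Nnat and Plagl1 rose under semaglutide, where Plagl1, a zinc finger gene, stood at 0.85 ± 0.26. Its call ended on leaving out any of 29 single libraries (edgeR adjusted p up to 0.115). Under tirzepatide Cdkn1c, a cell cycle inhibitor, rose by 1.59 ± 0.26 and the mannose 6-phosphate receptor Igf2r fell by 0.66 ± 0.15. After the switch Cdkn1c rose by 1.47 ± 0.26 and Gnas, the stimulatory G protein subunit, by 0.55 ± 0.18. The Gnas call ended without HFD 5, diet switch 3 or diet switch 7 (edgeR adjusted p up to 0.0896). The list medians were -0.12, -0.11 and -0.17 under semaglutide, tirzepatide and the switch, against 0.05, 0.03 and 0.03 over all genes.

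Among the 5 secreted Frizzled-related proteins 4 were tested, and Sfrp5 was the 1 called on HFD, under tirzepatide and after the switch against HFD, with none called under semaglutide. The list medians were 0.02 on HFD and -0.29, -0.68 and -0.60 under semaglutide, tirzepatide and the switch. Sfrp1 had group means of 8.42 to 17.9 CPM and differed by -0.53 ± 0.34 between HFD and ND, and it was lower under tirzepatide than in ND (-1.09 ± 0.34, edgeR adjusted p = 0.0364). Sfrp2 (2.84 to 7.09 CPM) stood at -0.68 ± 0.59 on HFD and Sfrp4 (4.35 to 7.17 CPM) at 0.57 ± 0.53, and neither passed in any comparison. Frzb had 101 counts over the 40 libraries and was not tested.

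The partners of Sfrp5 in Wnt signalling included 19 ligands, of which 6 were tested. On HFD 1 rose (median 0.14, all genes -0.04), Wnt8b at 2.33 ± 0.71, a call that ended on leaving out any of 19 single libraries (edgeR adjusted p up to 0.133). Under tirzepatide 1 fell (median -0.81), Wnt10b, a ligand known to hold back fat cell formation, by 1.99 ± 0.50 (edgeR adjusted p = 0.00405). It ran from 3.85 to 17.7 CPM in HFD and from 0 to 5.67 under tirzepatide. After the switch 3 fell (median -0.69): Wnt5a by 0.71 ± 0.17, Wnt8b by 2.81 ± 0.73 and Wnt10b by 1.28 ± 0.48. The last of these calls ended on leaving out any of 24 single libraries (edgeR adjusted p up to 0.144). Under semaglutide no ligand passed (median -0.22).

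Of 15 Wnt receptors and co-receptors 13 were tested. None passed on HFD (median 0.16) or under semaglutide (median 0.02). The Frizzled receptors Fzd5, Fzd8 and Fzd2 fell under tirzepatide by 0.91 ± 0.31, 0.76 ± 0.27 and 0.93 ± 0.33 (list median -0.28). These are 3 of 13 tested receptors, near the 20.5% of all genes called, and none of these calls was left without the muscle-high libraries. Fzd5 lost the call without HFD 1, 2, 6 or 7 or tirzepatide 1, 2 or 5, Fzd8 without HFD 1, 2, 5 or 6 or tirzepatide 2, 7 or 8, and Fzd2 without HFD 1, 2, 4 or 7 or tirzepatide 3, 4, 6 or 8 (edgeR adjusted p up to 0.0699, 0.0958 and 0.0796). After the switch Fzd5 fell by 1.27 ± 0.31, Fzd8 by 0.98 ± 0.27 and the co-receptor Lrp5 by 0.60 ± 0.22 (list median -0.19), again 3 of 13 beside 23.8% of all genes. The Lrp5 call ended on leaving out any of 20 single libraries (edgeR adjusted p up to 0.113). Of 9 other Wnt inhibitors 4 were tested, and 1 rose under tirzepatide and after the switch, Dkk2, by 1.09 ± 0.37 and 1.15 ± 0.37 (list medians 0.21 and -0.04), with none called on HFD or under semaglutide (medians -0.26 and 0.15). The Dkk2 call under tirzepatide ended without HFD 1, 2, 3, 5 or 6 or tirzepatide 6 or 7 (edgeR adjusted p up to 0.141).

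Among 9 tested genes of the 11 known to be induced by beta-catenin, Nkd1 was called in 4 of 4 comparisons with HFD and moved with Sfrp5 on HFD, under tirzepatide and after the switch. It ran from 10.6 to 61.8 CPM in ND (median 35.8), from 51 to 119 in HFD (median 72.1) and from 15.9 to 65 under semaglutide (median 30.8). It lay between 9.67 and 22.8 CPM under tirzepatide (median 12.1) and between 5.55 and 38 after the switch (median 16.3), without overlap with HFD in either group. Under semaglutide it fell (-1.09 ± 0.29, edgeR adjusted p = 0.0232) where Sfrp5 stood at -0.06, a difference between genes that was not tested, and it was below ND under tirzepatide (-1.36 ± 0.31, edgeR adjusted p = 0.00399). Its call on HFD ended without HFD 2 (edgeR adjusted p = 0.0611) and with no filter on low counts (edgeR adjusted p = 0.0581), and that under semaglutide without HFD 2 or semaglutide 1 (edgeR adjusted p = 0.0658 and 0.0578). The cyclin Ccnd1 fell by 0.57 ± 0.21 under tirzepatide, a call that ended without HFD 1, 3, 4, 6 or 7 or tirzepatide 2, 3, 5 or 8 (edgeR adjusted p up to 0.0957). The other listed targets, Axin2 among them, were not called on HFD or against HFD, and the list medians were -0.14 on HFD, 0.16 under semaglutide, -0.26 under tirzepatide and -0.13 after the switch.

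For Npr3, RNA of the hormones it clears was scarce: Nppa had 1 count and Nppb 13 counts over the 40 libraries. Ostn (osteocrin, another ligand of the receptor) had 0, and Nppc was not analysed here. RNA counts do not give the amount of peptide in the tissue. The protease Furin, which processes peptide precursors, was the 1 tested gene of this list of 6 and passed in no comparison. Of the 3 natriuretic peptide receptors Npr3 was the 1 called against HFD, under tirzepatide and after the switch (list medians 0.10 on HFD and -0.24, 0.21 and 0.18 in the 3 treatments). Npr1, the cyclase receptor of atrial natriuretic peptide, had means of 42.7 ± 13.8 CPM in ND and 45.1 ± 6.37 in HFD, and Npr2 of 51.1 ± 14.1 and 54.7 ± 10.7. Npr1 differed from HFD by 0.21 ± 0.17 under tirzepatide and 0.18 ± 0.17 after the switch, and Npr2 by 0.45 ± 0.19 and 0.27 ± 0.19 (edgeR adjusted p = 0.0831 for the largest). Npr1 was higher under tirzepatide than under semaglutide (0.61 ± 0.17, edgeR adjusted p = 0.0176), with 34 against 52.1 CPM on average, and lower under semaglutide than after the switch (-0.58 ± 0.17, edgeR adjusted p = 0.0179). The list of cGMP effectors and breakdown enzymes held 7 tested genes. They were the kinases Prkg1 and Prkg2, the phosphodiesterases Pde2a, Pde5a and Pde9a, and the peptidases Mme and Ide, which do not act on cGMP. Of these 1 was called, Prkg2 after the switch (1.27 ± 0.45). The median of these 7 was 0.67 on HFD with none called, against -0.04 over all genes, and -0.23, -0.10 and 0.12 in the 3 treatments against HFD. The Prkg2 call ended without HFD 1, 2, 3, 5, 6 or 7 or diet switch 5 (edgeR adjusted p up to 0.27).

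For Bmp3, 7 of 11 BMP ligands were tested and none, Bmp3 included, was called in any of the 10 comparisons (median 0.19 on HFD against -0.04 over all genes, and -0.03 and -0.24 under tirzepatide and the switch). Gdf10, the ligand closest to Bmp3 in sequence, had group means of 27 to 37.4 CPM and differed by -0.26 ± 0.46 between HFD and ND. Of the 6 tested receptors of 7, none was called on HFD (median 0.17) or under semaglutide (median 0.07). Acvr2b, the receptor that Bmp3 binds, rose by 1.15 ± 0.27 under tirzepatide and by 1.05 ± 0.27 after the switch (edgeR adjusted p = 0.00217 and 0.00418). Acvr1b, an activin receptor, fell by 1.08 ± 0.26 under tirzepatide, and Acvr2a, another activin receptor, rose by 1.09 ± 0.36 after the switch, a call that ended without HFD 6 or diet switch 3 or 5 (edgeR adjusted p up to 0.0591). The receptor medians were -0.13 under tirzepatide and 0.23 after the switch.

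Of 11 BMP inhibitors 8 were tested, and none passed on HFD (median -0.28). Chrdl1, a secreted chordin-like protein that binds BMPs, rose against HFD in the 3 treatments, by 1.30 ± 0.29 under semaglutide, 1.32 ± 0.29 under tirzepatide and 0.92 ± 0.29 after the switch (edgeR adjusted p = 0.00555, 0.00124 and 0.019). It ran from 11.7 to 39.1 CPM in HFD (median 25.7), from 21.7 to 100 under semaglutide (median 66.4), from 31.2 to 110 under tirzepatide (median 60) and from 30.1 to 86.4 after the switch (median 41). The last call ended without diet switch 3 (0.73, edgeR adjusted p = 0.0716). Sostdc1, an inhibitor of BMP and Wnt signalling, was low in HFD (0 to 3.6 CPM) and rose by 1.62 ± 0.55 under tirzepatide and 2.56 ± 0.54 after the switch. The call under tirzepatide ended without HFD 2, 3, 5 or 6 or tirzepatide 2 or 7 (edgeR adjusted p up to 0.0651). The list medians against HFD were 0.29, -0.09 and 0.41 in the 3 treatments, beside 0.05, 0.03 and 0.03 over all genes.

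Among 9 tested Smads and BMP-induced genes of 10, Smad6, an inhibitory Smad, rose on HFD by 1.01 ± 0.26 (edgeR adjusted p = 0.0107) and fell by 1.10 ± 0.26 under tirzepatide and 0.81 ± 0.25 after the switch. Id3, a transcriptional regulator induced by BMPs, ran from 149 to 289 CPM in HFD, from 44.2 to 119 under tirzepatide and from 23.4 to 110 after the switch, without overlap with HFD in either. It fell by 1.24 ± 0.23 and 1.64 ± 0.23 (edgeR adjusted p = 0.000137 and 2.26e-06). Under semaglutide none of the 9 passed. The list medians were 0.14 on HFD and -0.02, 0.17 and -0.03 in the 3 treatments against HFD.

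Some of these calls did not pass without the 11 muscle-high libraries, which leaves 3 tirzepatide and 5 diet switch libraries. On HFD Nkd1 stood at 0.95 (edgeR adjusted p = 0.167) and Wnt8b at 2.20 (edgeR adjusted p = 0.117), and under semaglutide Nkd1 at -1.07 (edgeR adjusted p = 0.0664) and Plagl1 at 0.91 (edgeR adjusted p = 0.0571). Under tirzepatide the values were -0.66 for Cav1, -0.45 for Fzd5, -0.66 for Fzd8, -1.37 for Fzd2, -0.93 for Acvr1b, 1.57 for Sostdc1 and -0.93 for Smad6 (edgeR adjusted p = 0.163, 0.464, 0.33, 0.0849, 0.103, 0.209 and 0.0877). After the switch they were -0.88 for Fzd8, -0.59 for Lrp5, -0.94 for Wnt10b, 0.54 for Gnas, 1.11 for Acvr2a and 0.84 for Chrdl1 (edgeR adjusted p = 0.0666, 0.139, 0.204, 0.0577, 0.0535 and 0.063). The change was larger than with all libraries for Fzd2, Plagl1 and Acvr2a, and smaller or about equal for the others. The part of muscle in these calls was not tested.

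**Figure D3:**
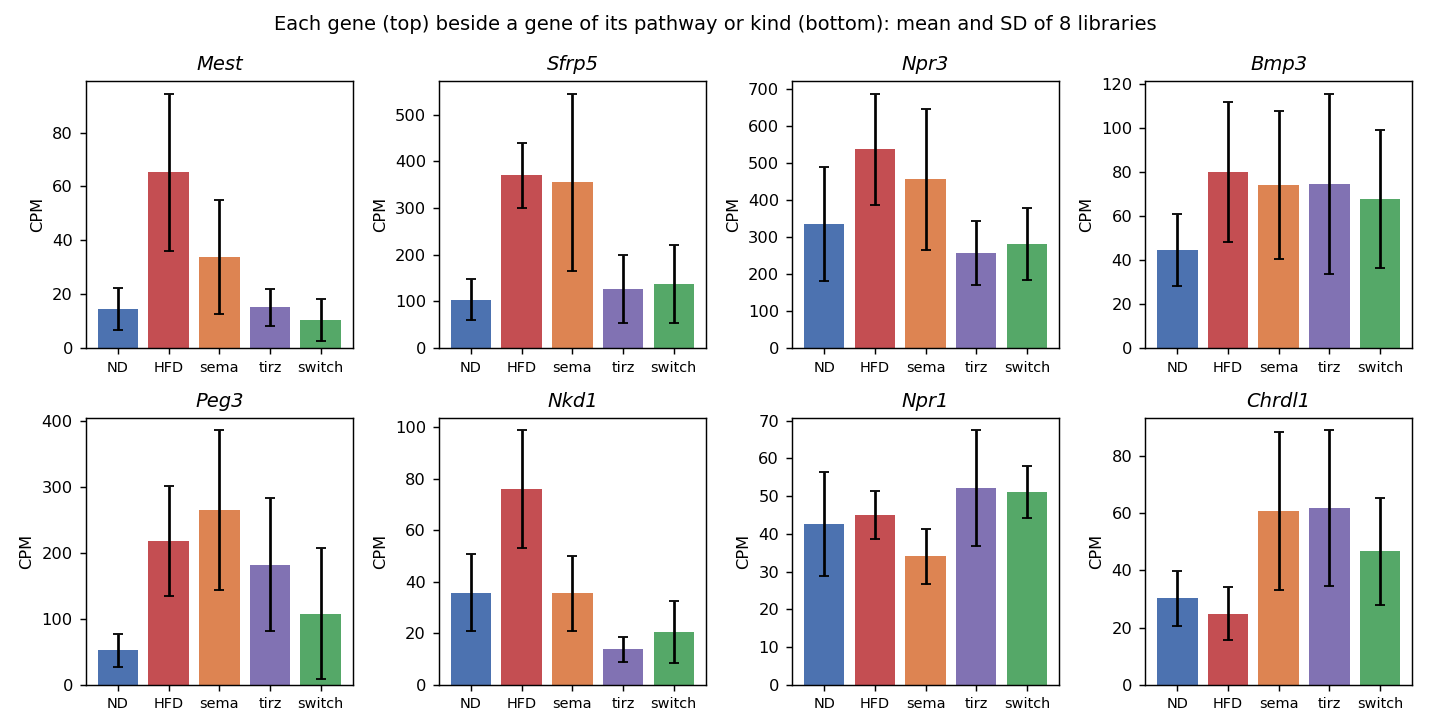
Mean and SD of 8 libraries in CPM for each of the 4 genes (top) and for a gene of its pathway or kind (bottom), on axes that start at 0. ND and HFD are the diets, sema and tirz the 2 drugs on HFD, and switch the diet switch. Peg3 stays high under both drugs where Mest is low under tirzepatide, and Npr1 bars stay between 34 and 52.1 CPM.

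With group means removed, the 4 genes rose and fell together over the 40 libraries, though not among the HFD libraries alone. Other gene pairs were not tested in this way, so the co-variation is not shown to be particular to these genes. After removing group means from log2 CPM, Pearson's r over the 40 libraries was 0.758 for Mest and Sfrp5, 0.766 for Mest and Npr3, 0.764 for Sfrp5 and Npr3, 0.776 for Npr3 and Bmp3, 0.699 for Sfrp5 and Bmp3 and 0.602 for Mest and Bmp3. Spearman's rho was 0.725, 0.715, 0.68, 0.693, 0.622 and 0.381 in the same order. Permutation within groups (100000 draws) gave p-values adjusted over the 6 pairs of 1.5e-05 to 9e-04 for r and 2e-05 to 0.0228 for rho, where the smallest raw p of 1e-05 is the smallest these draws can give. Without the 2 libraries farthest from the median, ND 5 and semaglutide 1, r was 0.655, 0.602, 0.647, 0.661, 0.569 and 0.335. The relation of Mest with Bmp3 rests to a large part on those 2 libraries. Without the muscle-high libraries (29 left) its rho was 0.339 and did not pass (adjusted permutation p = 0.103), while r was 0.678 (adjusted permutation p = 0.0047).

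The co-variation differed in size between groups. In the 8 HFD libraries r lay between -0.295 and 0.289 for the 6 pairs, and in the 8 semaglutide libraries between 0.811 and 0.976. It lay between 0.653 and 0.938 in ND, between 0.438 and 0.821 under tirzepatide and between 0.523 and 0.792 after the switch. The spread of Sfrp5, Npr3 and Bmp3 was smallest in HFD, and that of Mest was smallest under tirzepatide. For Sfrp5 the SD of log2 CPM was 0.27 in HFD and 0.88 in ND. It was 1.06 under semaglutide, 0.83 under tirzepatide and 0.89 after the switch. In the same order the SD for Npr3 was 0.43, 1.11, 0.82, 0.47 and 0.49. That for Mest was 0.781, 1.13, 1.51, 0.68 and 0.947, and that for Bmp3 was 0.465, 0.685, 0.87, 0.619 and 0.64. The differences in r between groups were not tested.

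Markers of other cells moved with the 4 genes within groups. The r with the B cell score was -0.506 for Mest, -0.549 for Sfrp5, -0.568 for Npr3 and -0.562 for Bmp3, as a description over the same 40 libraries. With the endothelial score (6 of 6 markers) it was 0.48, 0.599, 0.475 and 0.634, and with the adipocyte score 0.408, 0.355, 0.524 and 0.294. With the muscle score it lay between -0.04 and 0.189, with the progenitor score (8 of 8) between -0.0183 and 0.0833 and with the macrophage score (7 of 7) between -0.243 and -0.00981. ND 5 and semaglutide 1, the libraries with the most B cell markers, also had the lowest adipocyte score of their groups, at 9.87 and 10.1 log2 CPM. The part of these cells in the co-variation was not tested.

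**Figure D4:**
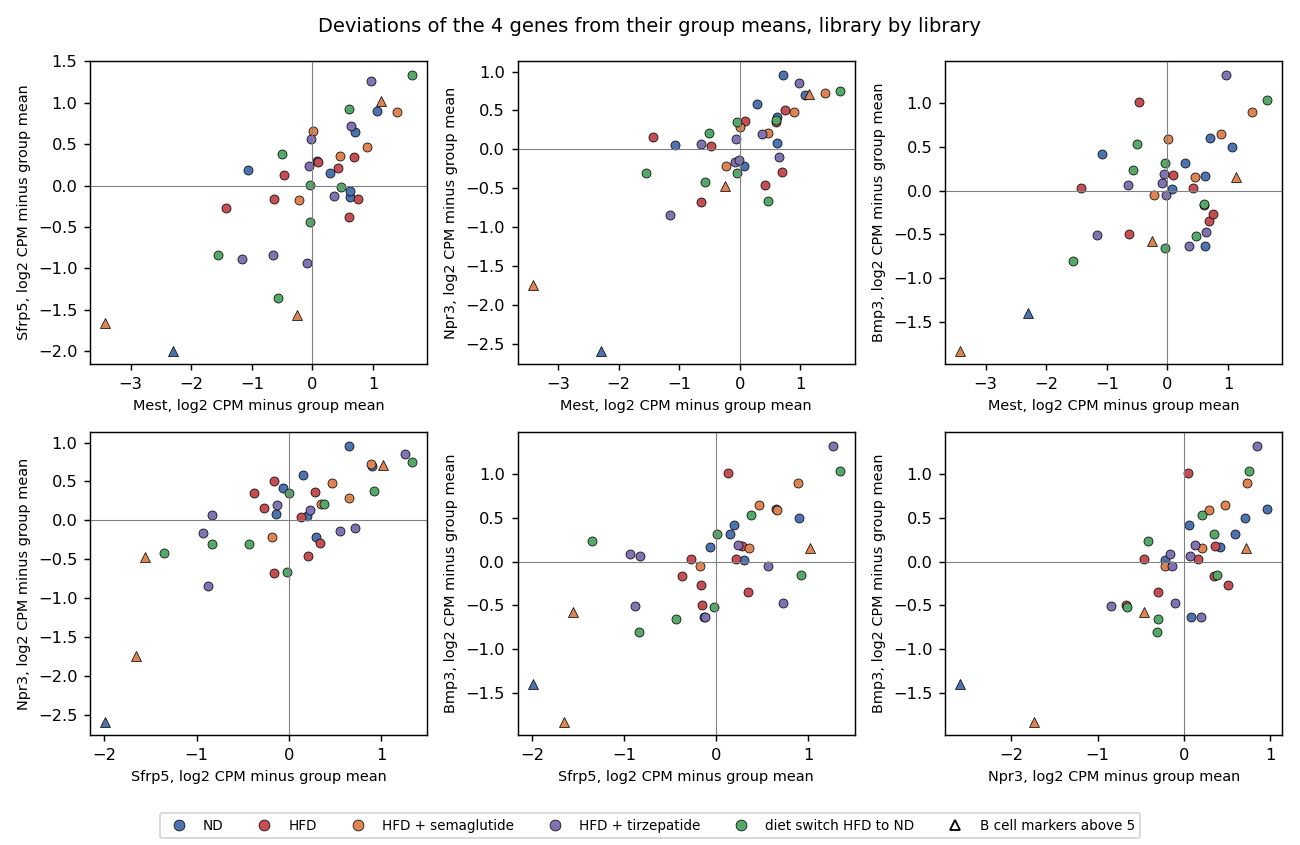
Deviations from the group mean in log2 CPM for the 6 pairs of genes, 1 point per library, coloured by group, with triangles for the 4 B-cell-high libraries. Points rise from lower left to upper right in each panel, and ND 5 and semaglutide 1 lie at the lower left. The cloud of Mest against Bmp3 is the widest, with r of 0.602.

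The genes whose levels were most like those of each member were ranked by Pearson's r of log2 CPM over the 40 libraries, among 12750 genes whose mean log2 CPM reached 2, as a description that includes the group differences. For Mest they were Prelp (0.897), Lhfpl2 (0.879), Lep (0.872), Oxtr (0.865) and Epn2 (0.86). For Sfrp5 they were Prelp (0.907), Tinagl1 and Synpo2 (0.848), Cd59a (0.846) and Lep (0.845). For Npr3 they were Lep (0.869), Fgf1 (0.84), Lpgat1 (0.829), Hspa12a (0.819) and Ptpn11 (0.817), and for Bmp3 they were Dst (0.837), Sptbn1 (0.828), Gpihbp1 (0.814), Limch1 (0.803) and Palmd (0.802). Lep was thus among the closest 5 for Mest, Sfrp5 and Npr3, and not for Bmp3.

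With group means removed, the closest genes to Mest were Lbp (0.849), Lhfpl2 (0.814), the imprinted Peg3 (0.81), Prelp (0.804) and Cavin1 (0.8). Those to Sfrp5 were Prelp (0.849), Cd59a (0.816), Aldh1a1 and Lbp (0.798) and Trim67 (0.795). Npr3 was closest to Slc5a3 (0.873), Lep and Adamts5 (0.871), Sptbn1 (0.842) and Ric3 (0.834), and Bmp3 to Dusp3 (0.851), St13 (0.837), Dst (0.831), Phactr2 (0.826) and Sptbn1 (0.811). Prelp, a proteoglycan of the matrix, stood beside Mest and Sfrp5 on both measures, and Lep beside Npr3 on both. These points share libraries and depth, so the values carry no test.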

How the data were processed

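RNA of subcutaneous white adipose tissue was profiled in 40 libraries of 5 groups. Per the labels' protocols, total RNA was extracted with Nucleozol and prepared with a LexoGen QuantSeq kit, which reads transcript ends, so counts were not scaled by length. The authors deposited a table of whole-number counts per gene symbol, which was used; their normalized table was not used, and 16 of its columns match no sample of the series. The build was mm10 per the submitters' processing notes. For the aligner, counting program, annotation and strand setting the sources used here give nothing.

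Groups come from the sample titles. Counts of the 40 libraries were scaled by TMM and fitted together with edgeR 4.0.16 (R 4.3.3), quasi-likelihood with robust dispersion, after filterByExpr (minimum count 10, minimum total 15), which kept 99.39% of the counts. P-values were adjusted by Benjamini-Hochberg over 15807 genes in each of 10 comparisons. SE is the log2 fold change over the root of its F value. CPM are TMM-scaled, and log2 CPM add a prior count of 2. Libraries with a mean marker level above 5 log2 CPM were called B-cell-high or muscle-high. No libraries of a group were copies (smallest chi-square per degree of freedom 3.99).

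The text names the 4 genes, Lep, up to 4 genes with the smallest adjusted p per gene list and comparison, the receptors, ligands and neighbours that pair with the 4 genes, and the 5 genes most like each in level. The genes and lists were chosen with earlier results of these data known, so no list is independent evidence. On simulated counts of HFD against ND for 15521 genes, edgeR recovered 13.6% of 66 genes changed 1.5-fold, 53% of 66 changed 2-fold and 89.4% of 66 changed 4-fold, with 4 false calls. Alternatives used DESeq2 1.42.0, limma 3.58.1, other filters, a replicate block, an exact permutation test and sets of libraries left out.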

Additional observations from a re-analysis of the deposited data

Results flagged for a closer look

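In 25 groups of 8 libraries (the 4 genes and Lep in 5 groups), the highest or lowest library was compared with its neighbour, and 3 groups had a library far enough from the next one to exceed Dixon's 95% critical value for a group of 8. Chance gives about 1 in 20 such groups. Mest stood at 27.7 CPM in diet switch 3, where the next library had 13.1 CPM. Bmp3 stood at 154 CPM in HFD 3, with the next at 86 CPM. Bmp3 also stood at 171 CPM in tirzepatide 4, with the next at 77.2 CPM. Diet switch 3 and tirzepatide 4 are among the muscle-high libraries, and HFD 3 is not.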

How the results depend on the processing

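The 40 gene and comparison results for Mest, Sfrp5, Npr3 and Bmp3 were recomputed under 11 alternatives, and 420 of 440 values kept their side of the threshold, with 11 newly past it and 9 no longer past it. Of the 440 values 12 changed sign, none past the threshold, and so did 17 of 1600 values with single libraries left out. The 12 were Bmp3 between tirzepatide and semaglutide (0.01; -0.29 to -0.04), Bmp3 (-0.11; 0.08 and 0.17) and Sfrp5 (-0.06; 0.13) under semaglutide against HFD, Sfrp5 between tirzepatide and the switch (-0.12; 0.07 and 0.15), and Mest (0.04; -0.41 and -0.13) and Sfrp5 (0.28; -0.20) between tirzepatide and ND. Adjusted p are from edgeR unless another test is named. Npr3 after the switch against HFD did not pass with no filter (-0.95, adjusted p = 0.0537), without muscle-high libraries (-1.002, 0.076) or without diet switch 3, 4 and 7 (-1.05, 0.0757), and ranged from -1.06 to -0.85 with single libraries left out. Nor did Npr3 under tirzepatide without muscle-high libraries (-1.29). With only the 2 groups compared, Bmp3 on HFD passed (0.85, 0.0383), while Mest (1.67, 0.0535) and Sfrp5 (1.36, 0.0563) for semaglutide against the switch did not. Neither passed without diet switch 3, 4 and 7 (1.93 and 1.55). Against semaglutide, tirzepatide gave Npr3 -0.97 by limma-voom (0.0168), Npr3 -0.99 and Mest -1.36 without B-cell-high libraries, and Sfrp5 -1.91 without muscle-high ones. With single libraries left out, Mest ranged there from -1.37 to -0.97 and Npr3 from -0.99 to -0.73. Npr3 for semaglutide against the switch was 0.84 by limma-voom (0.0481) and 0.86 without B-cell-high libraries (0.0166). The two-sided exact permutation test (p unadjusted) passed for Mest under semaglutide against HFD (-1.22, p = 0.0389), Npr3 on HFD (0.88, p = 0.0207), Npr3 between tirzepatide and semaglutide (-0.74, p = 0.0471), Bmp3 on HFD (0.88, p = 0.0014) and Bmp3 between tirzepatide and ND (0.72, p = 0.0325). Causes were not tested.

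Of the 4 genes, the number called for semaglutide against the switch went from 2 to 0 in a 2-group fit and without diet switch 3, 4 and 7. For tirzepatide against semaglutide it went from 1 to 2 by limma-voom, 0 without muscle-high and 3 without B-cell-high libraries, and from 1 to 3 with single libraries left out. Without muscle-high libraries the calls on HFD went from 1 to 0 for Wnt ligands and Wnt targets. Under semaglutide they went from 2 to 1 for fat growth and imprinted genes and from 1 to 0 for Wnt targets. Under tirzepatide they went from 5 to 3 for fat growth genes, 3 to 0 for Wnt receptors, 1 to 0 for natriuretic peptide receptors and 2 to 1 for BMP receptors, inhibitors and targets. After the switch they went from 3 to 1 for Wnt receptors, 1 to 0 for natriuretic peptide receptors, 0 to 1 for BMP ligands and 2 to 1 for BMP receptors and inhibitors.

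Over all genes, calls on HFD went from 712 to 1289 by limma-voom. Semaglutide against HFD went from 656 to 1013 in a 2-group fit, 1263 by limma-voom and 412 without B-cell-high libraries. Tirzepatide against HFD went from 3246 to 1145 without muscle-high libraries, and the switch against HFD from 3759 to 1148 without diet switch 3, 4 and 7 (those 3). Against ND, semaglutide went from 417 to 267 with no filter and 952 by limma-voom, tirzepatide from 1591 to 2451 by limma-voom and 332 without muscle-high libraries, and the switch from 2338 to 1470 in a 2-group fit and 112 without those 3. Tirzepatide against semaglutide went from 1584 to 225 without muscle-high and 959 without B-cell-high ones. Semaglutide against the switch went from 2101 to 1213 in a 2-group fit, 1230 without B-cell-high libraries and 276 without those 3. Tirzepatide against the switch went from 63 to 1 in a 2-group fit and without muscle-high libraries, 120 by limma-voom, 218 by DESeq2, 123 without B-cell-high libraries and 347 without those 3. With single libraries left out, counts moved over 1.5 times for semaglutide against HFD (437 to 895; HFD 5), semaglutide against ND (256 to 853; ND 1, 4 and 5 and semaglutide 3), tirzepatide against ND (1046 to 1797; ND 4 and tirzepatide 4), the switch against ND (1321 to 3075; ND 4 and diet switch 3 and 4), semaglutide against the switch (1367 to 2797; diet switch 3 and 7) and tirzepatide against the switch (35 to 357; tirzepatide 3, 5 and 8 and diet switch 2).

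Pairing by replicate number was not tested. Mean r of deviations was 0.0291 for 80 same-numbered pairs and -0.00369 for 560 others (18 and 65 over 0.1). Of 40 libraries 11 matched their own number best. With the replicate block no call of the 4 genes changed (Mest on HFD 2.19, adjusted p = 0.00452; Npr3 after the switch -0.97, adjusted p = 0.034). The block ended the calls of Plagl1 under semaglutide (adjusted p = 0.0694) and Prkg2 after the switch (adjusted p = 0.0654), and took tirzepatide against the switch from 63 to 99 genes. Depth limits Mest most (as few as 7 counts in a library). Most 1.5-fold changes were missed on simulated counts.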
